A study of Homo sapiens with 12 samples.

Results

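Genes for histone lysine methyltransferases and demethylases and for chromatin remodelling complexes were examined in RNA immunoprecipitation sequencing (RIP-seq) data of METTL16, eIF3a and eIF3b. Members were the gene names in the 6 deposited peak lists whose symbols begin with KMT2, KDM followed by 1 to 8, SETD followed by a digit, SMARC, or ARID followed by 1 to 5, or consist of CHD and 1 digit. This rule found 59 of 10830 gene names, which were 5 KMT2, 17 KDM, 8 SETD, 11 SMARC, 9 CHD and 9 ARID genes. In GENCODE release 44, 66 protein-coding genes match the rule, and 7 of them carried no name in the lists used here. Among the members, 1 gene on chromosome Y was counted and is not described by name.

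The cells were HepG2, an established human liver cancer line, made to stably overexpress Flag-tagged METTL16, eIF3a or eIF3b after infection with vectors that carried the tagged proteins, and all were cross-linked with ultraviolet light. METTL16 is an RNA methyltransferase, and eIF3a and eIF3b are core subunits of eukaryotic translation initiation factor 3. Each protein had 2 RIP samples and 2 inputs, 12 samples in all, and each RIP sample had its own list of peaks, that is, of exonic stretches in which RIP reads exceeded input reads. Per the labels, a Flag antibody recovered METTL16 and eIF3b and an antibody to eIF3a itself recovered eIF3a, so antibody and protein cannot be told apart for eIF3a. The names of the deposited lists carry the word flag for all 3 proteins, eIF3a included, and which of these sources is right for eIF3a was not settled here. No list from an unspecific antibody or from cells without the tagged proteins was used here.

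Methyltransferases of the KMT2 and SETD1 type place methyl groups on lysine 4 of histone H3, a mark of active promoters and enhancers, and KDM enzymes remove methyl groups from histone lysines. Most SMARC proteins, with the ARID1 and ARID2 proteins, are subunits of the SWI/SNF (BAF and PBAF) complexes, which slide or evict nucleosomes with the energy of ATP, whereas SMARCA1 and SMARCA5 are ATPases of the ISWI type and SMARCAD1 is a separate remodeller. CHD proteins are ATP-driven remodellers with chromodomains. Many of these genes are altered in liver and other cancers, with ARID1A and ARID2 among those known for it in hepatocellular carcinoma.

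The 6 lists held between 12921 and 21733 peaks on 5226 to 8166 genes, with the fewest genes in eIF3a replicate 2. Of 10 hepatocyte marker genes, between 2 and 9 carried a peak in a list, and of 5 markers of other cells, between 1 and 2 did. A peak reports enrichment over input and not an RNA level, and a transcript has to be expressed to be seen. Read counts were not used here, so the depth behind each peak is unknown.

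Most members carried peaks for all 3 proteins. A peak was found on 51 members in METTL16 replicate 1 (86.4%, against 53.8% of all 10830 genes) and on 44 in METTL16 replicate 2 (74.6% against 58.5%). In the eIF3a lists the counts were 56 in replicate 1 (94.9% against 75.4%) and 50 in replicate 2 (84.7% against 48.3%). In the eIF3b lists they were 57 in replicate 1 (96.6% against 74.5%) and 52 in replicate 2 (88.1% against 69.9%). The members' share was above that of all genes in each of the 6 lists.

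Member transcripts are long, and long transcripts offer more room for a peak. The median exon length of a member's canonical transcript was 6422.5 bases against 3480 for all genes, and its median coding length was 4342.5 against 1479 bases. When all genes were weighted to the members' distribution over 10 exon length classes, the share of genes with a peak became 58.7% and 56.7% for METTL16 replicates 1 and 2, 84.7% and 65.0% for eIF3a, and 80.0% and 79.0% for eIF3b. The members' shares stayed above these values in every list, by the least in eIF3b replicate 2. RNA level could not be weighted in the same way, since no expression values were used here.

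**Figure D1:**
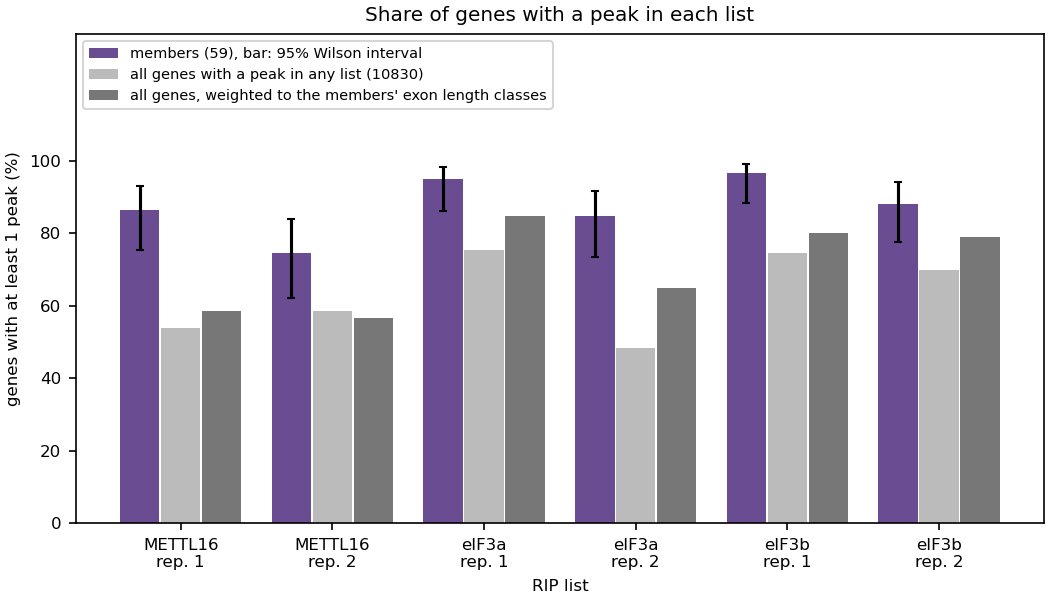
Percent of genes with at least 1 peak (vertical axis) in each of the 6 RIP lists (horizontal axis) for the 59 members with 95% Wilson intervals, for all 10830 genes with a peak in any list, and for all genes weighted to the members' exon length classes. The members lie between 74.6% and 96.6% and are above both grey bars in every list.

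Binding of a gene by a protein was called where both lists of the protein held a peak on it. METTL16 bound 43 members (72.9%, 95% Wilson interval 60.4% to 82.6%), against 42.6% of all genes, or 44.8% after weighting for length. eIF3a bound 49 members (83.1%, 71.5% to 90.5%), against 42.4% of all genes and 59.6% after weighting. eIF3b bound 52 members (88.1%, 77.5% to 94.1%), against 60.0% and 70.0%. A peak in all 6 lists was present on 39 members (66.1%, 53.4% to 76.9%), against 25.2% of all genes, or 34.9% after weighting.

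All 43 members bound by METTL16 were also bound by eIF3b, against 85.5% of the 4612 genes of any kind bound by METTL16. Of the 43, 39 were bound by eIF3a as well (90.7%, against 61.1% of all METTL16-bound genes), and the other 4 were KDM3A and KDM8, both JmjC-domain proteins, SMARCB1, a core subunit of the canonical BAF and PBAF complexes, and SMARCD2, an accessory BAF subunit. Each of these 4 had an eIF3a peak in 1 of the 2 lists, so a single list decided the call. A further 8 members were bound by eIF3a and eIF3b and not by METTL16. These were the PBAF subunit gene ARID2, the coactivator gene ARID5B, the remodeller genes CHD1, CHD8 and CHD9, the H3K4 methyltransferase gene KMT2C, the actin histidine methyltransferase gene SETD3 and 1 gene that is not named. Every named gene of these 8 had a METTL16 peak in 1 list, ARID2 in replicate 2 and the others in replicate 1. KDM1B and KDM6A, demethylases of H3K4 and H3K27, were bound by eIF3a alone, and SETD4 by eIF3b alone. These genes each had a peak in a single list of at least 1 other protein.

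The remaining 5 members were bound by none of the proteins. ARID3C, CHD5, SETD9 and SMARCAD1 each had a peak in 1 list, and SETD6 had peaks in replicate 1 of each protein. No member had peaks in both lists of 1 protein and in no list of the other proteins.

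The members' excess over all genes was also seen among stronger peaks. With peaks of at least 4-fold enrichment alone, METTL16 bound 21 members (35.6%) against 17.9% of all genes, eIF3a 21 (35.6%) against 14.3%, and eIF3b 29 (49.2%) against 24.8%. With the 5000 peaks of smallest p-value in each list, the counts were 21 for METTL16 (35.6% against 20.1%), 33 for eIF3a (55.9% against 15.9%) and 36 for eIF3b (61.0% against 21.2%). These shares were not weighted for length.

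Members carried several peaks each. Over members with a peak, the mean number of peaks per gene stood at 4.08 (replicate 1) and 3.52 (replicate 2) for METTL16, 5.20 and 4.50 in eIF3a, and 4.70 and 5.54 in eIF3b. Over all genes, it ran from 2.07 to 2.66. After weighting all genes to the members' length classes the means were 2.88 and 2.57 for METTL16, 3.64 and 3.22 for eIF3a, and 3.40 and 3.59 for eIF3b, still below the members in every list.

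Per kilobase of exon, the gap was smaller. Members had 0.562 and 0.498 peaks per kb in the METTL16 lists, against 0.513 and 0.509 for all genes, so that METTL16 replicate 2 was slightly lower for members. In the eIF3a lists members had 0.717 and 0.605 against 0.589 and 0.483, and in the eIF3b lists 0.676 and 0.765 against 0.589 and 0.582. The exon bases under a peak differed more. In members with a peak, 14.8 and 13.5 of 100 exon bases lay under a METTL16 peak (all genes 12.3 and 13.0), 22.2 and 27.0 under an eIF3a peak (14.1 and 17.4), and 28.2 and 26.6 under an eIF3b peak (17.5 and 15.5).

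**Figure D2:**
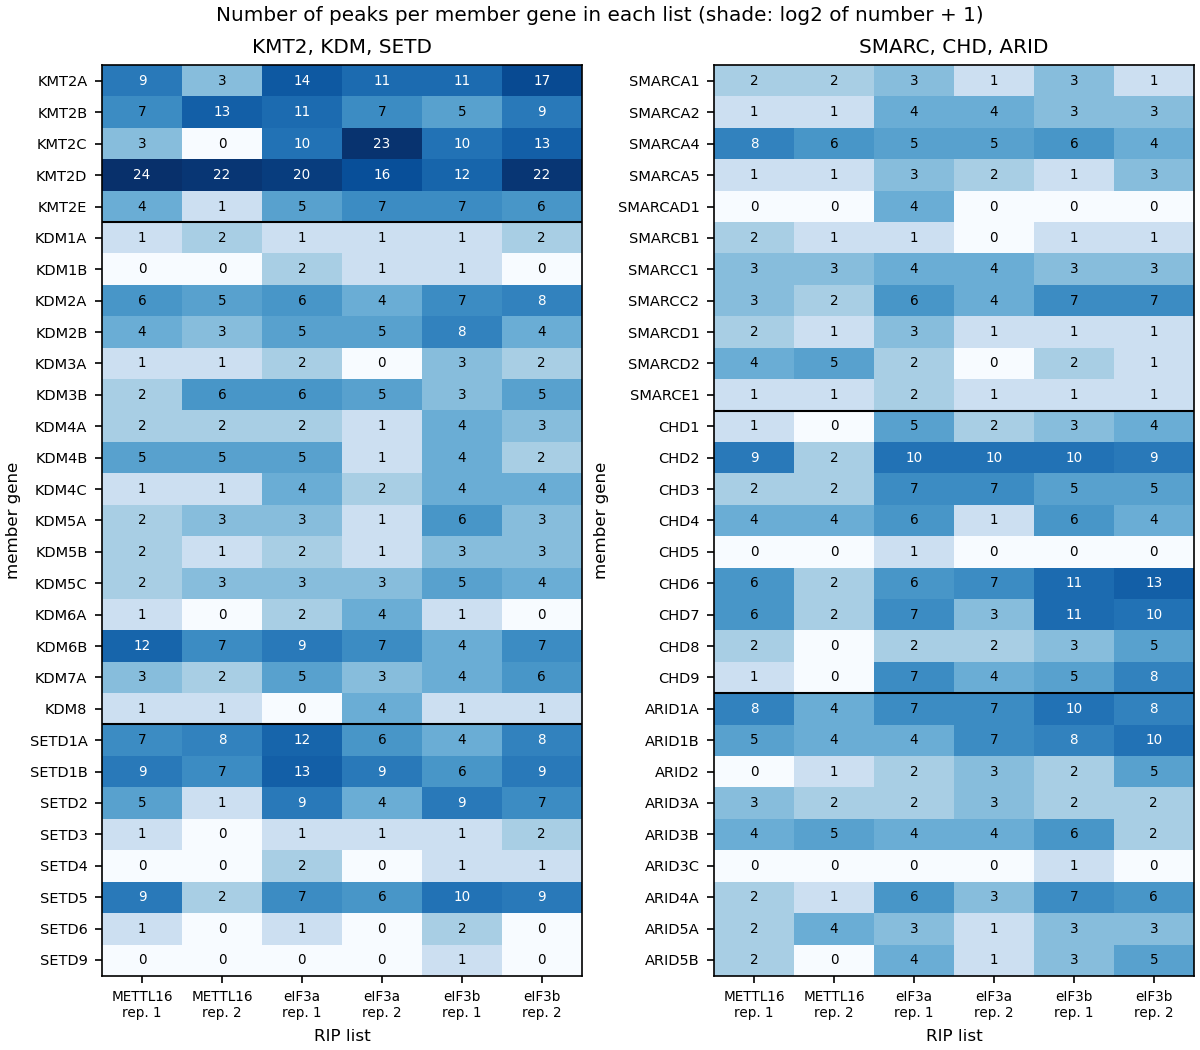
Number of peaks of each member gene (rows, by family) in each of the 6 RIP lists (columns), printed in the cell and shaded on a log2 scale. KMT2D has between 12 and 24 peaks in every list, while KMT2C has 3 and 0 for METTL16 and 10 to 23 in the other lists; the member on chromosome Y is left out.

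The KMT2 family held the members with the most peaks. KMT2A, KMT2B, KMT2C and KMT2D encode large H3K4 methyltransferases, and KMT2E a related SET-domain protein without clear methyltransferase activity. All 5 were bound by eIF3a and by eIF3b, and 4 by METTL16, with KMT2C as the exception. The family made up 47 and 39 of the members' 208 and 155 METTL16 peaks, 60 and 64 of 291 and 225 eIF3a peaks, and 45 and 67 of 268 and 288 eIF3b peaks.

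KMT2D, whose product is the H3K4 monomethyltransferase MLL4 of enhancers, had 24 and 22 peaks in METTL16 replicates 1 and 2, 20 and 16 in eIF3a, and 12 and 22 in eIF3b. No gene of any kind had more peaks than KMT2D in either METTL16 list, and 3, 5, 30 and 1 genes had more in the eIF3a and eIF3b lists in the same order. The low number in eIF3b replicate 1 went with long peaks, since 14128 bases of exon lay under its 12 peaks, against 10362 bases under 22 peaks in replicate 2. Its canonical transcript, with 55 exons and 20635 bases, is the longest among the members.

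In each list, the KMT2D peak with the smallest p-value lay over the stop codon in exon 55 and reached into the 3′ UTR. Its fold enrichment was 12.6 and 7.06 for METTL16, 8.70 and 8.01 for eIF3a, and 13.7 and 10.9 for eIF3b. The narrowest of the 6, in METTL16 replicate 2, covered 301 bases at chr12:49021522-49021822 (GRCh38, minus strand) and lay inside the other 5. A peak was present at the same place for all 3 proteins and in all samples.

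The other family members differed more between lists. KMT2C, the close paralog of KMT2D, had 3 METTL16 peaks in replicate 1 and none in replicate 2, but 10 and 23 eIF3a peaks and 10 and 13 eIF3b peaks. Parts of KMT2C exist as copies elsewhere in the genome, and how reads with several matches were treated was not given in the sources used here. KMT2B had 7 and 13 METTL16 peaks, 11 and 7 eIF3a peaks, and 5 and 9 eIF3b peaks, with no order of the proteins by number. Bases under KMT2B peaks were 3897 and 4052 for METTL16, 4889 and 6712 for eIF3a, and 7336 and 4650 for eIF3b. In 5 of its lists the peak of smallest p-value included exon 3, with folds of 17.0, 21.4, 10.8, 17.5 and 7.18, and in eIF3a replicate 2 it spanned exons 28 to 37 at 6.73-fold.

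KMT2A, rearranged in acute leukaemias, had 9 and 3 METTL16 peaks, 14 and 11 eIF3a peaks, and 11 and 17 eIF3b peaks. KMT2E had 4 and 1 METTL16 peaks, 5 and 7 eIF3a peaks, and 7 and 6 eIF3b peaks. For KMT2A, KMT2C and KMT2E, each METTL16 list held fewer peaks than each eIF3a and eIF3b list, and for KMT2B the ranges of METTL16 and both eIF3 subunits overlapped. For KMT2D, each METTL16 list held more peaks than each eIF3a list, and 1 METTL16 and 1 eIF3b list were equal at 22. Counted in exon bases under its peaks, KMT2D had fewer in each METTL16 list than in any eIF3 list. These were 8953 and 5865 for METTL16, 10207 and 15869 for eIF3a, and 14128 and 10362 for eIF3b. With 2 lists against 2, an exact permutation test cannot give a p under 0.33, so these are descriptions.

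**Figure D3:**
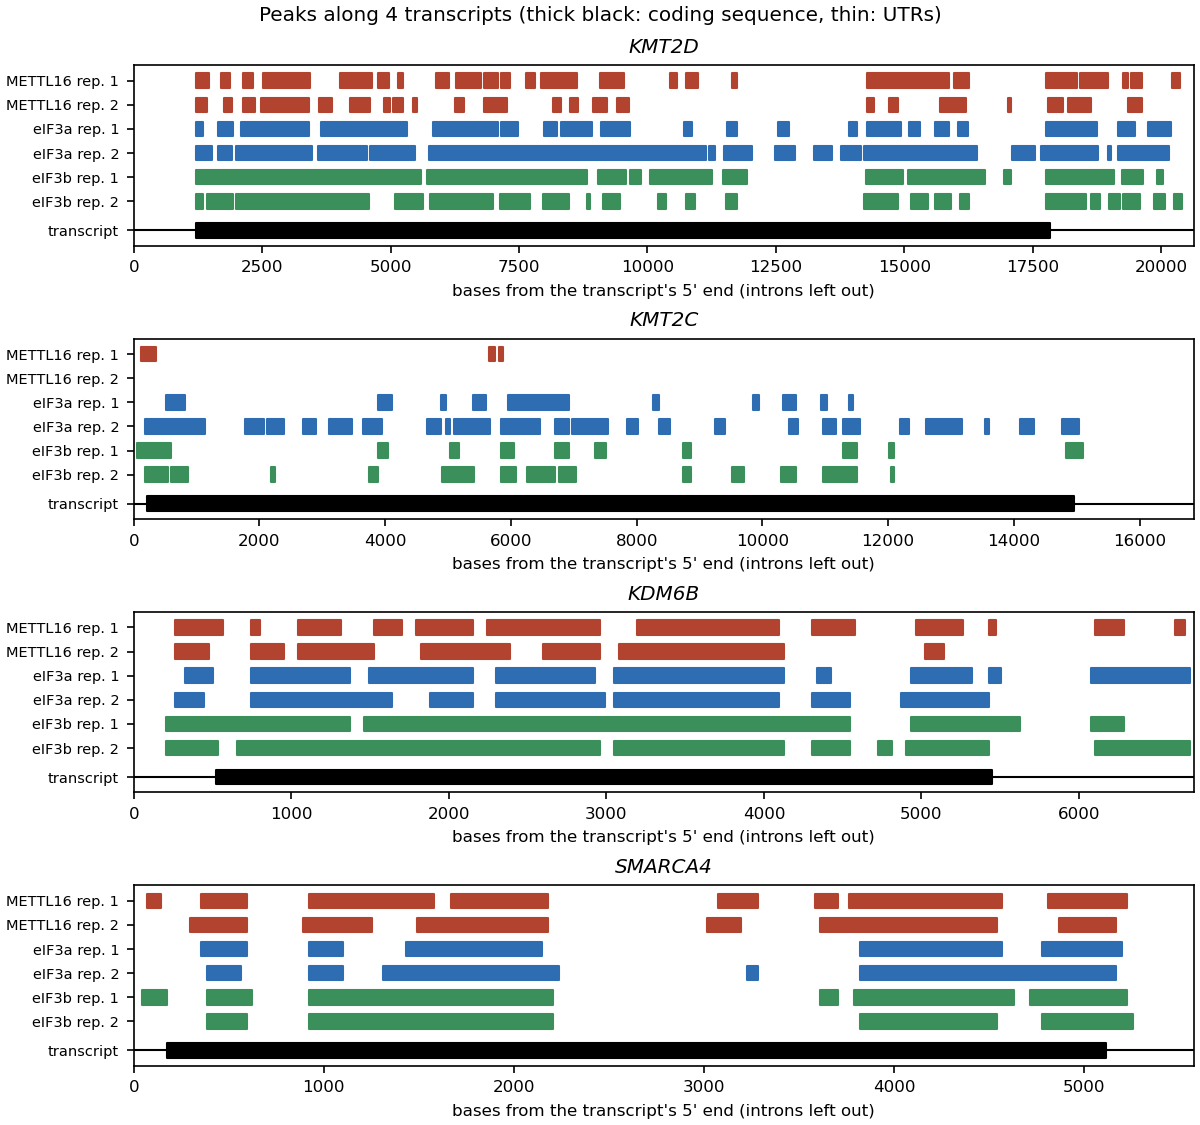
Peaks (coloured bars) of METTL16, eIF3a and eIF3b, replicates 1 and 2, along the canonical transcripts of KMT2D, KMT2C, KDM6B and SMARCA4; the horizontal axis gives bases from the 5′ end with introns left out, and the thick black bar marks the coding sequence. KMT2D, KDM6B and SMARCA4 show peaks of the 3 proteins over the same stretches, and KMT2C shows 3 peaks in METTL16 replicate 1 and none in replicate 2.

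The stretches that carried a peak in all 6 lists were mostly coding, as were 67.1% of the members' exon bases. They were counted for members only, with no value over all genes. Such bases existed in 25 members and summed to 16804, of which 15199 were coding (90.4%), 1314 lay in 3′ UTRs and 291 in 5′ UTRs. KMT2D held the most, with 3737 bases (18.1% of its exons), followed by KDM6B with 2161 (32.1%) and SMARCA4 with 1950 (35.0%). SMARCA4, KDM6B and KMT2B (20.5%) had the highest shares of their own exons. KMT2A had 151 such bases, and KMT2C and KMT2E had none.

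The start of the longest such run inside a coding exon is printed for the member with the most shared bases in each of 4 families, to show the bound RNA itself. Capitals mark bases under a peak in all 6 lists, and lower case marks the coding bases just upstream in the same exon. The letters are the hg38 reference read on the strand of the gene. The KMT2D run covers 900 bases of exon 11 at chr12:49051494-49052393 and begins at codon 430, the KDM6B run 764 bases of exon 12 at chr17:7848965-7849728 at codon 893, the SMARCA4 run 219 bases of exon 29 at chr19:11034914-11035132 at codon 1318, and the SETD1B run 354 bases of exon 11 at chr12:121819404-121819757 at codon 1140.
KMT2D: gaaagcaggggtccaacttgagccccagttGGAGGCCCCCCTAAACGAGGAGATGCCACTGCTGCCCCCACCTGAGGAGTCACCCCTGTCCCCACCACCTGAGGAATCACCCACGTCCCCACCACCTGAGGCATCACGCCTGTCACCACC
KDM6B: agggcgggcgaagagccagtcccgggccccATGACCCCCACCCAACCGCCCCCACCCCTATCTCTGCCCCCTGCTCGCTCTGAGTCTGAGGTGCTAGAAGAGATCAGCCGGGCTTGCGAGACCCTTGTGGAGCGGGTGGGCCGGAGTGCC
SMARCA4: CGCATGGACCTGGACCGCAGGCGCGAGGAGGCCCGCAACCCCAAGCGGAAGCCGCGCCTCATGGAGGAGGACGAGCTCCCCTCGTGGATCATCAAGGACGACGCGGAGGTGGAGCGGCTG
SETD1B: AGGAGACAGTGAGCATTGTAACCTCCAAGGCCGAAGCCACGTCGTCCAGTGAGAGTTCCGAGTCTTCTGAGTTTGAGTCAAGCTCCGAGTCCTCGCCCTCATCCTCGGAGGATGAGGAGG
The GC content over the whole runs was 62.4% in KMT2D, 66.0% in KDM6B, 66.2% in SMARCA4 and 62.1% in SETD1B. Peak edges follow the windows of the peak caller and not single bases.

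Among the SETD genes, SETD1A and SETD1B, the catalytic subunits of the SET1 complexes, carried the most peaks. SETD1A had 7 and 8 METTL16 peaks, 12 and 6 eIF3a peaks, and 4 and 8 eIF3b peaks. SETD1B had 9 and 7, 13 and 9, and 6 and 9 in the same order. The smallest-p peak of SETD1B included exons 7 to 11 in every list, with folds of 13.0 and 19.1 for METTL16, 10.5 and 7.83 for eIF3a, and 23.9 and 13.0 for eIF3b.

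SETD5, a SET-domain protein linked to intellectual disability, differed between METTL16 replicates, with 9 peaks in replicate 1 and 2 in replicate 2, against 7 and 6 for eIF3a and 10 and 9 for eIF3b. METTL16 bound 4 of the 8 SETD members, eIF3a 5 and eIF3b 6. The members without METTL16 binding were SETD3, SETD4, SETD6 and SETD9, of which SETD3 and SETD6 had a METTL16 peak in replicate 1. The only SETD9 peak, in eIF3b replicate 1, lay outside the exons of the GENCODE model of that gene.

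Of the 17 KDM genes, METTL16 bound 14, eIF3a 15 and eIF3b 15, and 12 had a peak in all lists. KDM6B, an H3K27 demethylase induced by inflammatory signals, had 12 and 7 METTL16 peaks, 9 and 7 eIF3a peaks, and 4 and 7 eIF3b peaks. Bases under KDM6B peaks ran the other way, 3751 and 2998 for METTL16, 4377 and 3897 for eIF3a, and 5270 and 5273 for eIF3b. Its smallest-p peak covered exons 12 to 14 in all 6 lists, alone in 5 of them and within exons 11 to 18 in eIF3b replicate 1. Fold enrichment there was 7.80 and 13.1 for METTL16, 10.0 and 5.70 for eIF3a, and 14.9 and 10.2 for eIF3b. Its paralog KDM6A had 1 and 0 METTL16 peaks, 2 and 4 eIF3a peaks, and 1 and 0 eIF3b peaks.

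KDM4B and KDM4C, H3K9 and H3K36 demethylases, were the next members of the family by rank. KDM4B had 5 METTL16 peaks in each replicate, 5 and 1 eIF3a peaks, and 4 and 2 eIF3b peaks. The single eIF3a replicate 2 peak ran over 3026 exonic bases from exon 2 to exon 21, whereas the smallest-p peaks of METTL16 covered 361 bases of exons 11 and 12 in each replicate. The list with the fewest KDM4B peaks thus held the most KDM4B bases under a peak. KDM4C had 1 METTL16 peak in each replicate, 4 and 2 eIF3a peaks, and 4 eIF3b peaks in each replicate.

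In the SMARC family METTL16 bound 10 of 11 genes, eIF3a 8 and eIF3b 10, and SMARCAD1 was bound by none of the proteins. SMARCA4, the BRG1 ATPase of the BAF complexes, had 8 and 6 METTL16 peaks, 5 and 5 eIF3a peaks, and 6 and 4 eIF3b peaks. Its highest fold in each list was modest, 4.53 and 5.75 for METTL16, 3.11 and 3.19 for eIF3a, and 5.59 and 4.55 for eIF3b, although by smallest p-value it ranked between 194 and 867 among the genes of each list.

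SMARCE1, the BAF57 subunit with an HMG box, had a single peak in each list except eIF3a replicate 1, where it had 2. Its smallest-p peak included exons 10 and 11 in every list, at 8.46-fold and 5.21-fold for METTL16, 5.26-fold and 1.96-fold for eIF3a, and 7.90-fold and 6.91-fold for eIF3b. SMARCC1, the BAF155 scaffold, had 3 METTL16 peaks in each replicate, 4 eIF3a peaks in each and 3 eIF3b peaks in each. SMARCD2 had 4 and 5 METTL16 peaks on its short transcript of 2464 bases, against 2 and 0 for eIF3a and 2 and 1 for eIF3b. That gave 1.83 METTL16 peaks per kb, the highest METTL16 value among the 57 members shown with a gene model.

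Of the 9 CHD genes, METTL16 bound 5, eIF3a 8 and eIF3b 8. CHD2, a remodeller whose loss causes epilepsy, had 9 and 2 METTL16 peaks, 10 and 10 eIF3a peaks, and 10 and 9 eIF3b peaks. CHD6 had 6 and 2, 6 and 7, and 11 and 13 in the same order, and CHD7, mutated in CHARGE syndrome, had 6 and 2, 7 and 3, and 11 and 10. For each of these genes METTL16 replicate 2 held the fewest peaks. The family as a whole had 31 METTL16 peaks in replicate 1 and 12 in replicate 2, on 8 and 5 genes.

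Among the ARID genes METTL16 bound 6 of 9, and eIF3a and eIF3b each bound 8. ARID3A, a DNA-binding partner of E2F1, had only 2 or 3 peaks in a list but had the smallest p-value of all members in every list but eIF3a replicate 2, and in METTL16 replicate 1 stood at rank 27 of 5829 genes. Its ranks in the others were 83, 104, 671, 41 and 88. The smallest-p peak included exons 2 and 3 in 5 lists, with folds of 10.6 and 9.27 for METTL16, 4.01 for eIF3a replicate 1, and 7.92 and 4.30 for eIF3b, and lay in the 3′ UTR at 2.40-fold in eIF3a replicate 2.

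ARID1A, the large DNA-binding BAF subunit, had 8 and 4 METTL16 peaks, 7 and 7 eIF3a peaks, and 10 and 8 eIF3b peaks. Its smallest-p peak included exon 1 in every list, at 10.2-fold and 6.18-fold for METTL16, 6.05-fold and 22.5-fold for eIF3a, and 17.6-fold and 5.95-fold for eIF3b. ARID1B, its alternative in the complex, had 5 and 4, 4 and 7, and 8 and 10 peaks. The highest fold on any member was on ARID1B in eIF3b replicate 1 (35.7) and, level with CHD3, in METTL16 replicate 2 (33.4).

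Whether the peak of smallest p-value lay at the same place was compared between lists for the 39 members with peaks in all of them. The comparison was not made for all genes, so its shares have no background. The smallest-p peaks overlapped by at least 1 base in every pair of lists for 8 members, namely CHD6, KDM4B, KDM6B, KMT2D, SETD1B, SMARCA1, SMARCC2 and SMARCE1. SMARCA1 and SMARCC2 fell outside the rule for named genes and were added after their values were seen. Wide peaks overlap more readily, and the median width of these peaks differed between lists. It was 330 and 270 bases for METTL16, 390 and 421 for eIF3a, and 540 and 480 for eIF3b. Between replicates, the smallest-p peaks overlapped for 20 members (51.3%) in METTL16, 16 (41.0%) in eIF3a and 28 (71.8%) in eIF3b. Between proteins, the number ran from 10 (25.6%, METTL16 replicate 2 and eIF3a replicate 2) to 27 (69.2%, METTL16 replicate 1 and eIF3a replicate 1), so replicates of METTL16 and eIF3a lay within the range seen between proteins.

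Member peaks lay mainly in coding sequence. The exonic centre was coding for 79.8% and 78.6% of member peaks in METTL16 replicates 1 and 2, 73.2% and 81.8% in eIF3a, and 79.0% and 75.0% in eIF3b. Over all genes the shares were 60.9% and 68.6%, 56.7% and 57.9%, and 60.9% and 57.5%. Member transcripts hold more coding sequence to begin with, 67.1% of their exon bases against 46.7% for all genes, so the coding share of peaks exceeded that of the exons in both sets.

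**Figure D4:**
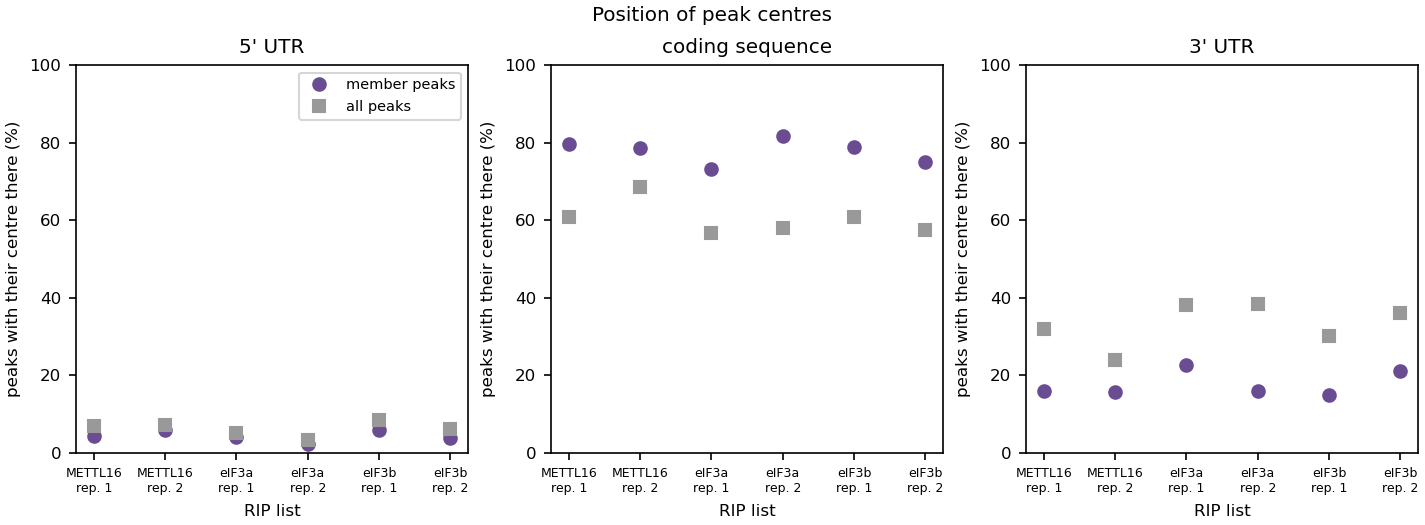
Percent of peaks (vertical axis) with their exonic centre in the 5′ UTR, the coding sequence or the 3′ UTR in each of the 6 RIP lists (horizontal axis), for member peaks and for all peaks. Member peaks are between 73.2% and 81.8% coding and between 14.98% and 22.7% in the 3′ UTR, all peaks between 56.7% and 68.6% coding.

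Centres in the 3′ UTR made up 15.9% and 15.6% of member peaks for METTL16, 22.7% and 16.0% for eIF3a, and 14.98% and 21.2% for eIF3b, and the 3′ UTR held 29.6% of the members' exon bases. The 5′ UTR held 3.33% of exon bases and 4.3%, 5.8%, 4.1%, 2.2%, 6.0% and 3.8% of member peaks in the order of the lists. The share of coding centres that fell in the tercile of the coding sequence nearest the start codon was 39.0% and 40.0% for METTL16, 35.2% and 36.1% for eIF3a, and 35.5% and 28.7% for eIF3b. Over all peaks this share lay between 31.7% and 32.7%, so members were above it in every list but eIF3b replicate 2.

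By family, the coding share of KMT2 ran from 81.7% to 92.2% over the 6 lists, the highest of the families in the METTL16 and eIF3a lists, whereas SMARC was higher in both eIF3b lists and CHD in eIF3b replicate 1. The share ran from 72.5% to 87.0% for CHD, 78.4% to 85.7% for SMARC, 60.6% to 81.2% for SETD, 60.7% to 81.2% for KDM, and 68.8% to 78.6% for ARID. The range of KMT2 did not overlap those of SETD, KDM and ARID, and it overlapped those of CHD and SMARC. These families share the lists and differ in transcript structure, and no test was made between them.

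Member peaks were 210 bases wide at the median in both METTL16 lists, 210 and 211 in eIF3a, and 240 in both eIF3b lists, counted over exonic bases. All peaks had medians of 180 and 180, 180 and 210, and 210 and 181. These medians moved with the peaks counted, since the difference of METTL16 minus eIF3a, −0.5 bases, was −326.5 with peaks of at least 4-fold, and that of METTL16 minus eIF3b, −30, was −186.25. The mean member width was larger and less even, 266 and 274 for METTL16, 311 and 447 for eIF3a, and 422 and 350 for eIF3b. The widest member peaks were 1589 bases on KMT2D and 2212 on ARID3A in the METTL16 lists, 2125 on CHD2 and 5395 on KMT2D in eIF3a, and 4397 on SETD1B and 2992 on CHD2 in eIF3b. Median fold enrichment of member peaks was 3.22 and 3.93 for METTL16, 2.79 and 2.54 for eIF3a, and 2.84 and 3.03 for eIF3b, against 3.09, 3.40, 2.98, 2.73, 3.20 and 2.94 over all peaks.

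In members bound by both proteins, most METTL16 peaks coincided with eIF3 peaks. Over 4 pairs of lists, 80.9% ± 9.38 (SD) of METTL16 member peaks overlapped an eIF3b peak, and 74.5% ± 6.30 an eIF3a peak. The reverse was lower, with 47.6% ± 11.9 of eIF3b member peaks and 51.1% ± 8.77 of eIF3a member peaks overlapping a METTL16 peak. Over all genes these 4 shares were 78.5%, 66.7%, 56.1% and 52.8%. Between replicates of one protein, the share of member peaks that overlapped was 59.9% with METTL16, 63.6% with eIF3a and 74.1% with eIF3b, against 65.1%, 59.1% and 68.4% over all genes. The pairs share lists, and eIF3 peaks cover more bases, so the shares are descriptions.

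Binding by METTL16 moved with base composition. The median GC content of the canonical transcript was 51.3% in the 43 members bound by METTL16 and 44.3% in the 11 bound by eIF3a or eIF3b and not by METTL16. For all genes these medians were 54.2% and 44.7%. Of the 11 members, KDM1B, SETD4 and the gene not named had no METTL16 peak. The others had METTL16 peaks in a single list, so the 11 are not a group free of METTL16 peaks. Median exon lengths of these 2 member groups were 6354 and 7492 bases.

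Within the KMT2 family, KMT2B (63.5% GC) and KMT2D (59.8%) had 1.18 and 1.11 METTL16 peaks per kb. KMT2A (46.9%), KMT2C (45.0%) and KMT2E (41.9%) had 0.361, 0.089 and 0.321. With eIF3a the same 5 genes, in the order of the alphabet, had 0.753, 1.06, 0.979, 0.872 and 0.771, and with eIF3b 0.843, 0.825, 0.682, 0.824 and 0.835 peaks per kb. By number of peaks per kb, the family was thus more even for eIF3b than for METTL16. That count takes a long peak as a single peak, and bases under peaks were less even for eIF3b. In eIF3b replicate 1 they were 7336 on KMT2B and 14128 on KMT2D, with transcripts of 8485 and 20635 bases. On KMT2A, KMT2C and KMT2E they were 2523, 2137 and 1477, with transcripts of 16600, 16860 and 7782 bases. Replicate 2 had 5139, 4650, 3457, 10362 and 2734 for the 5 genes in the order of the alphabet.

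Across the 58 members placed on a gene model, Spearman's rho between GC content and peaks per kb was 0.56 and 0.63 in the METTL16 lists, 0.28 and 0.27 in eIF3a, and 0.27 and 0.26 in eIF3b. The points are genes that share a library, so rho is given as a description. Peaks per kb also count long and short peaks alike. Peaks themselves averaged 58.9% and 61.2% GC on members for METTL16 and between 53.2% and 54.7% for eIF3a and eIF3b. Over all peaks the averages were 58.99% and 60.8% for METTL16, 53.7% and 53.1% for eIF3a, and 58.1% and 54.1% for eIF3b. Over all peaks, eIF3b replicate 1 thus lay nearer to METTL16 replicate 1 than to eIF3b replicate 2. The part of GC content in these differences was not tested.

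**Figure D5:**
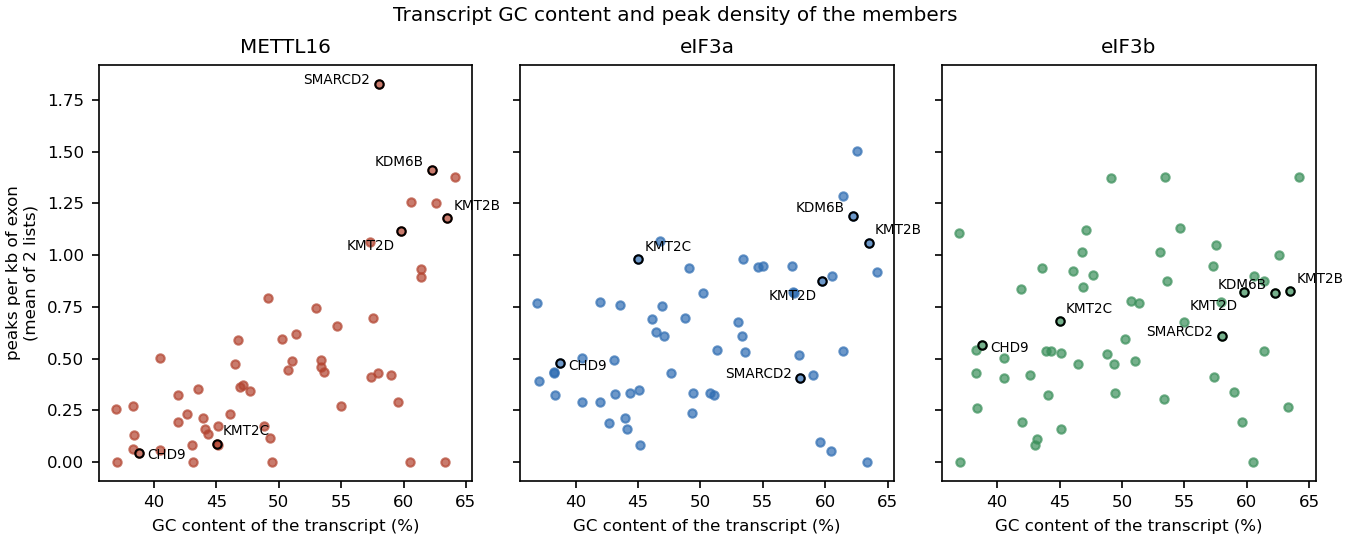
GC content of the canonical transcript (horizontal axis) and peaks per kb of exon (vertical axis, mean of 2 lists) for METTL16, eIF3a and eIF3b; each point is 1 of 57 member genes, and 6 genes are labelled and circled. Members with less GC than KMT2C (45.0%) have at most 0.501 METTL16 peaks per kb, while their eIF3b values reach 1.11.

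Differences between proteins over the members were compared in 12 tests, 2 lists against 2. Members with a peak were 80.5% ± 8.39 (SD, n = 2) for METTL16, 89.8% ± 7.19 for eIF3a and 92.4% ± 5.99 for eIF3b. Those of METTL16 and eIF3b did not overlap (difference of 11.9 percentage points, exact permutation test, two-sided, p = 0.33, the smallest this design can give). Peaks per member gene did not overlap between METTL16 (3.80 ± 0.393) and eIF3a (4.85 ± 0.492) or eIF3b (5.12 ± 0.592), nor did median width between eIF3b and each of the others, all with exact p = 0.33. Coding share overlapped for each pair of proteins. The gaps in genes with a peak and in peaks per gene were also present over all genes, so they are not particular to members. Over all genes, 53.8% and 58.5% had a peak for METTL16, and 74.5% and 69.9% for eIF3b. Peaks per gene over all genes were 2.26 and 2.07 for METTL16, 2.66 and 2.47 for eIF3a, and 2.58 and 2.65 for eIF3b. Median width over all genes was 180 bases in both METTL16 lists and did not overlap that of eIF3b, 210 and 181. That of eIF3a, 180 and 210, overlapped that of eIF3b. After Benjamini-Hochberg adjustment over the 12 comparisons the smallest exact p was 0.80.

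The direction of the difference in peaks per member gene turned with the strength of peaks counted. With peaks of at least 4-fold alone, METTL16 lists had more peaks per member gene than eIF3a lists, by 0.51, and than eIF3b lists, by 0.16.

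The overlap of members between replicates was compared with that between proteins. The Jaccard index, the members in both lists divided by those in either, was 0.866 ± 0.0431 (SD) over the 3 replicate pairs and 0.856 ± 0.0569 over the 12 pairs of different proteins (exact one-sided permutation test over 15 pairings, p = 0.40). For all genes the means were 0.614 and 0.565. With most members in most lists, the index leaves little room for a difference. Counted over exonic bases under member peaks, the difference was 0.0607 in place of 0.0103 (exact p = 0.133).

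Other genes of the same pathways were counted in 7 related lists. Of their 120 genes, 106 had a peak in any list, METTL16 bound 68, eIF3a 68 and eIF3b 81, and 53 had a peak in all 6 lists. As background, GENCODE holds 20007 protein-coding genes, and 10830 names of any kind had a peak in any list. Of these names METTL16 bound 4612, eIF3a 4596 and eIF3b 6493, and 2730 had a peak in all 6 lists. The counts of the related lists were not weighted for length. Partners of the NuRD complex, which contains CHD3 or CHD4 with histone deacetylases, had 11 of 12 genes bound by METTL16, 9 by eIF3a and 11 by eIF3b. Of 16 further remodelling ATPases and partners, METTL16 bound 10, eIF3a 13 and eIF3b 15. Of 20 COMPASS and PRC2 partners the counts were 13, 13 and 14.

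Of 19 histone acetyltransferases and deacetylases, METTL16 bound 13, eIF3a 11 and eIF3b 13. Of 9 further JmjC-type demethylases, the counts were 5, 5 and 7. Of 26 other lysine methyltransferases, 9, 11 and 14 were bound, and of 18 other BAF and PBAF subunits, 7, 6 and 7. Among these methyltransferases and subunits, 6 and 4 genes had no peak in any list. Unlike the members, these lists were not limited to genes with a peak, so their shares have another base.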

How the data were processed

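RIP-seq peak lists of 6 samples, 2 replicates each of METTL16, eIF3a and eIF3b in HepG2, were analysed one by one. The 6 inputs entered only through the authors' peak calling. The study's methods state that reads were mapped to GRCh38 with STAR (also named in the submitters' processing notes) and that peaks of RIP over input were called with exomePeak at default parameters. Versions, the annotation and which input served each RIP sample were not given in the sources used here. For each peak the authors deposited a p-value, a score (the p-value and its adjusted value on the log10 scale), and the fold enrichment over input, a ratio, together with exonic blocks and a gene name. No value was rescaled, and replicates were not pooled. No counts were used, so no interval was given for single peaks.

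Peaks were placed on GENCODE 44 gene models when at least 50% of their bases lay on the gene's exons, and their centre was assigned to the 5′ UTR, coding sequence or 3′ UTR, with the canonical transcript first. This placed 58 of 59 members. Binding was called where both lists of a protein held a peak on the gene. Shares of members have 95% Wilson intervals, and these cover only counting error. Coordinates count from 1.

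Proteins were compared with exact permutation tests over lists. Genes named were all KMT2 members, the 3 best-ranked members of each other family by p-value over the lists, those with the most peaks and the most bases shared by the 6 lists, and members of counts of 5 or fewer. The members, lists and tests were chosen with earlier results of these data known. Replicates are separate samples per the labels, and the p-values of the exact permutation tests rest on the spread between lists. The p-values of peaks come from the authors' peak calling of RIP over input and do not measure the spread between replicates. Alternatives were peaks of at least 4-fold, the 5000 peaks of smallest p, current symbols, other measures of each quantity, a replicate block and leaving out each list. Scripts ran in Python 3.11.15 with numpy 2.4.6, pandas 2.3.3, scipy 1.17.1 and pysam 0.24.0 and were tested on simulated data.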

Additional observations from a re-analysis of the deposited data

How the results depend on the processing

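Of 140 alternative values for 19 results, 105 were counted as the same, 15 as moved and 20 as changed in sign. For differences, the same means that the sign did not turn, though the size could change. The median width of METTL16 minus eIF3a without eIF3a replicate 2 was 0 and was counted as the same. Percents bound have no sign and were counted as the same or as moved. No comparison between proteins passed a threshold in any setting, since 2 lists against 2 cannot reach one, and most changes of sign concern small differences. The percent of members bound by METTL16, eIF3a and eIF3b became 35.6, 35.6 and 49.2 with peaks of at least 4-fold, 35.6, 55.9 and 61.0 with the 5000 peaks of smallest p, and 88.1, 96.6 and 96.6 with a peak in either replicate. Leaving out a replicate gave 74.6 to 86.4 for METTL16, 84.7 to 94.9 for eIF3a and 88.1 to 96.6 for eIF3b. Weighting all genes for length gave 44.8, 59.6 and 70.0 percent bound.

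The difference between eIF3a and eIF3b in members with a peak, −2.54 percentage points, ranged from −7.63 to 2.54 when a list was left out and turned without eIF3a replicate 2 (2.54) or eIF3b replicate 1 (1.69). The coding share difference of METTL16 minus eIF3a, 1.70 points, became −1.69 with the 5000 peaks of smallest p and −2.20 counted over peak bases, and ranged from −2.59 (without eIF3a replicate 1) to 5.99. That of METTL16 minus eIF3b, 2.18, became −0.609 over peak bases. That of eIF3a minus eIF3b, 0.474, became −0.410 with peaks of at least 4-fold and −0.862 when each member counted once, and ranged from −3.82 (without eIF3a replicate 2) to 4.76, with −1.54 without eIF3b replicate 2. The median width of METTL16 minus eIF3a, −0.5 bases, became −326.5 with peaks of at least 4-fold, −209 with the 5000 peaks of smallest p, −338.25 for genomic span and −109 as a mean, and that of METTL16 minus eIF3b, −30, became −186.25, −269, −315.25 and −115. The median width of eIF3a minus eIF3b, −29.5 bases, became 140.25 with peaks of at least 4-fold and 23 for genomic span. Peaks per member gene of METTL16 minus eIF3a, −1.05, and minus eIF3b, −1.32, became 0.514 and 0.160 with peaks of at least 4-fold. For eIF3a minus eIF3b, −0.272, the value was 0.187 with the 5000 peaks of smallest p and ranged from −0.690 to 0.146, above 0 without eIF3a replicate 2 (0.0763) or eIF3b replicate 2 (0.146). The within minus between Jaccard difference of members, 0.0103, was 0.0607 over exonic bases (exact p = 0.133) and −0.0317 with the 5000 peaks (exact p = 0.87) and ranged from −0.00830 (without eIF3b replicate 1) to 0.0457, with −0.00476 without METTL16 replicate 2.

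With a replicate block, the differences in means were unchanged by construction. The members with a peak then differed by −11.9 percentage points between METTL16 and eIF3b in a paired exact permutation test with p = 0.50, the smallest that 2 pairs allow, and the within minus between Jaccard difference was 0.000316 when only lists of the same replicate number were compared. The causes of these changes were not tested. The unknown depth, 2 lists per protein and the lack of expression values limit what a missing peak can mean.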
